A study of Mus musculus with 8 samples.

Results

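The 7 sirtuin genes (Sirt1 to Sirt7), the poly(ADP-ribose) polymerase genes Parp1 and Parp2, and the nicotinamide N-methyltransferase gene Nnmt were chosen by name, and all 10 were found among the 55487 genes of the count table. Nicotinamide (NAM) is linked to each of them. Sirtuins remove acyl groups from proteins by splitting NAD+, and PARPs split NAD+ to build ADP-ribose chains on proteins, so both release NAM, which in turn inhibits them. NNMT removes NAM by methylating it with S-adenosylmethionine. In muscle stem cells (MuSCs), the cells that rebuild muscle fibres, SIRT1 is known as a deacetylase that links NAD+ levels to the choice between quiescence and differentiation.

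The libraries measured how the transcriptome of MuSCs from old mice differed after culture with NAM and pyridoxine (PN, a form of vitamin B6) together. Cells were sorted as CD31-, CD11b-, CD45- and Sca1- and as CD34+ and integrin α7+, and were kept for 72 hours either with 1% DMSO (vehicle) or with NAM/PN at 1 mM. The libraries were labelled as 4 pools of 2 mice each, with 1 vehicle and 1 NAM/PN library per pool number. Throughout, n = 4 per condition. The study's methods name C57BL/6JRj males for its mouse work, each library was already a mixture of 2 animals, and NAM and PN were not given apart, so their effects cannot be told apart here.

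Libraries held 6472484 to 10163101 counts, and 3 counts, the limit that a count of 0 allows, corresponded to 0.28 to 0.457 CPM, counts scaled to a common library size. This limit covers counting error only. The 10 genes together took 1916 to 2883 counts per library, or 0.0271 to 0.0395% of all counts. One ribosomal RNA gene took 5.22 to 18.7%. All 12 MuSC markers had counts in some library, with summed levels of 3110 to 3530 CPM in vehicle and 2410 to 3070 CPM in NAM/PN libraries. The largest parts were Myod1 (means of 1370 and 1200 CPM) and Des (813 and 610 CPM). Calcr was at no more than 1.31 CPM in any library. Chrdl2 was at no more than 8.65 CPM in vehicle and 0.305 CPM in NAM/PN libraries. Both had too few counts to be tested. Differentiated muscle markers summed to 1590 to 3260 CPM in vehicle and 380 to 924 CPM in NAM/PN libraries. Of the 10 tested, 7 were called lower, against 120 of 12060 over all tested genes. Among the 7 was Myog, which encodes the differentiation factor myogenin. The part of this difference in differentiated muscle markers in the results below was not tested.

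None of the 10 genes was called changed by NAM/PN at an adjusted p under 0.05 (edgeR quasi-likelihood test, Benjamini-Hochberg adjustment over 12060 tested genes), where 1.28% of tested genes were called. Nnmt had too few counts to be tested. Of the 9 genes tested, 4 were higher and 5 lower, and their median was -0.114 on the log2 scale against -0.0022 over all tested genes. One, Sirt7, had an unadjusted p under 0.05, a level reached by 9.28% of all tested genes. DESeq2 and limma also called none of the 9, and each gave 1 gene, Parp1, with an unadjusted p under 0.05. Parp1 and Sirt7 were higher and Sirt3 was lower in 4 of 4 pools, a run of 1 direction seen in 19.1% of tested genes. In none of the 9 did the libraries of both conditions separate without overlap, which 7.21% of tested genes did.

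**Figure D1:**
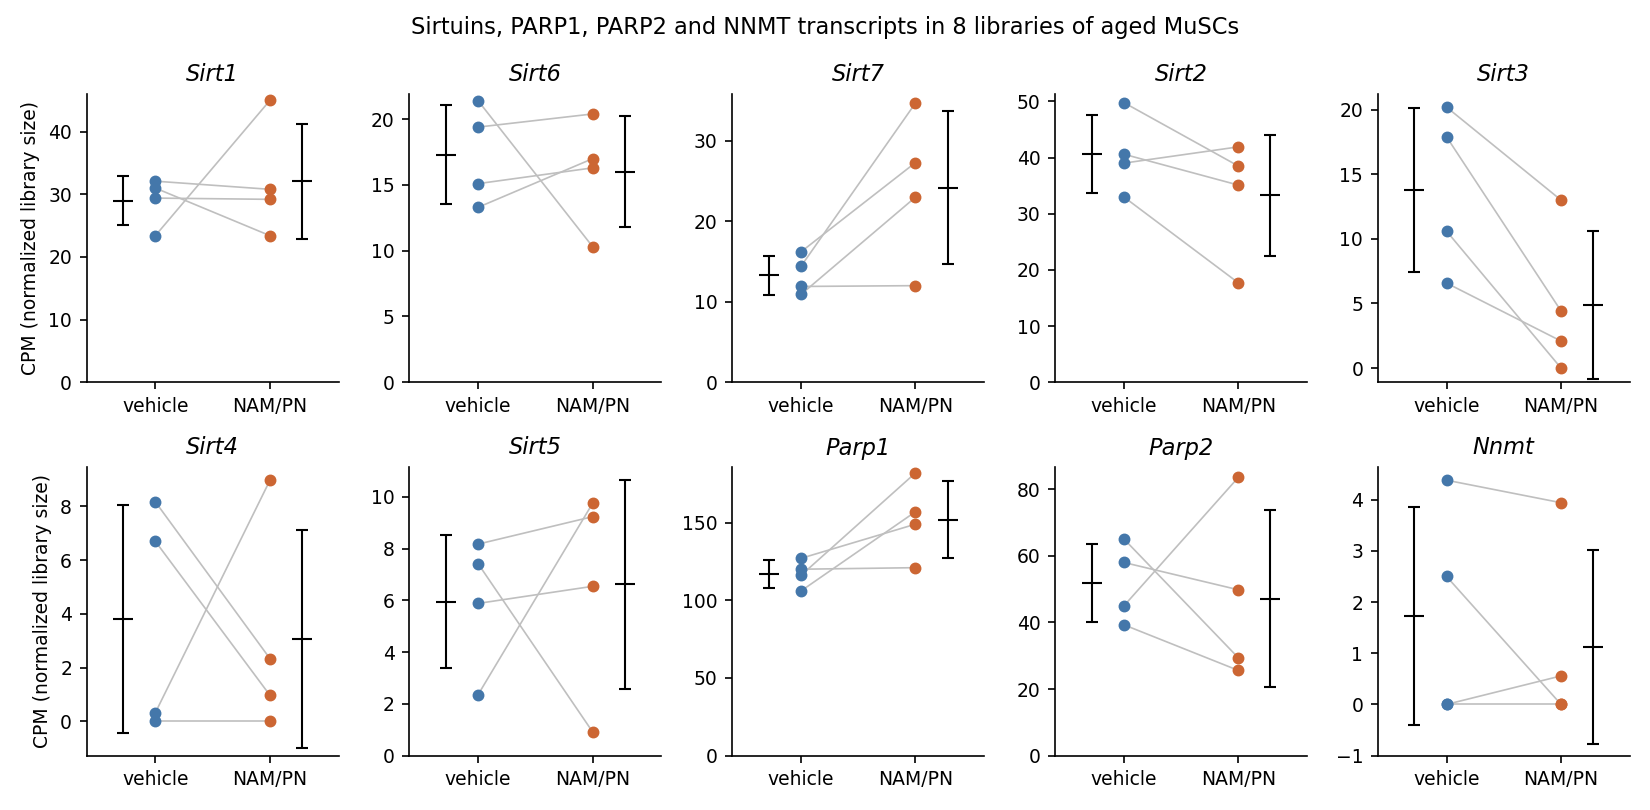
Level of each gene in CPM of the normalized library size (vertical axis, a separate scale for each gene) in vehicle (blue) and NAM/PN (orange) libraries; a grey line joins the libraries of 1 pool, and black bars give the mean ± SD of 4 libraries. Each line goes up for Parp1 and Sirt7, by little in 1 pool each, and down for Sirt3, while the conditions overlapped in every panel.

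Among the nuclear sirtuins, Sirt7 stood farthest from 0. SIRT7 resides mainly in the nucleolus and acts on ribosomal RNA transcription. Sirt7 (ENSMUSG00000025138, GRCm38 chromosome 11, 120618372 to 120625240, minus strand) was at 16.2, 11.9, 10.9 and 14.4 CPM in vehicle pools 1 to 4 and at 27.3, 12, 23 and 34.7 CPM in the matching NAM/PN libraries. Pools 1, 3 and 4 were clearly higher with NAM/PN and pool 2 was level. Means were 13.3 ± 2.42 and 24.2 ± 9.48 CPM (SD, n = 4), a log2 fold change of 0.86 ± 0.41 (SE; 95% interval 0.01 to 1.71, unadjusted p = 0.0476 and adjusted p = 0.529 by edgeR). The exact permutation test over the 70 assignments of 8 libraries gave p = 0.0857, where the smallest p it can give is 0.0286; this test does not use the pairing of libraries by pool. When pool entered the edgeR fit as a block, the log2 fold change was 0.78, with an unadjusted p of 0.0865 and an adjusted p of 0.635, so the unadjusted p no longer fell under 0.05. Sirt7 shares 124 exonic bases, 2.41% of its exons, with Mafg on the same strand. Mafg had 9478 counts over the 8 libraries against 1283 for Sirt7.

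Sirt1, which deacetylates histones and many transcription regulators (ENSMUSG00000020063, chromosome 10, 63319005 to 63381704, minus strand), was at 29.4, 23.4, 32.1 and 31 CPM in vehicle and at 29.2, 45, 30.8 and 23.4 CPM in NAM/PN libraries. Only pool 2 was higher with NAM/PN, by much more than the other pools differed. The log2 fold change was 0.15 ± 0.31 (95% interval -0.5 to 0.79, adjusted p = 0.968 by edgeR), so changes from 0.708-fold to 1.73-fold lay within the interval. Sirt6, a chromatin deacetylase tied to DNA repair and telomeres (ENSMUSG00000034748, chromosome 10, 81621785 to 81627797, minus strand), was at 19.4, 13.3, 15.1 and 21.4 CPM in vehicle and at 20.4, 17, 16.3 and 10.3 CPM in NAM/PN libraries. It was a little higher in 3 pools and lower in pool 4, and its log2 fold change was -0.11 ± 0.41 (interval -0.98 to 0.75, adjusted p = 0.986). Summed over Sirt1, Sirt6 and Sirt7, the level was 48.6 to 66.8 CPM in vehicle and 68.4 to 76.9 CPM in NAM/PN libraries. The gap was small, with the libraries of pool 4 at 66.8 and 68.4 CPM. This sum was not tested, and how often sums of other genes separate was not examined. For single genes the share was 7.21%. The sum of Parp1 and Parp2 overlapped, at 159 to 185 CPM in vehicle and 147 to 265 CPM in NAM/PN libraries. None of the 3 sirtuins separated the conditions alone: Sirt7 was higher in each pool, Sirt1 in pool 2 only, and Sirt6 in 3 pools.

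Sirt2, the mainly cytosolic member, a tubulin deacetylase (ENSMUSG00000015149, chromosome 7, 28766735 to 28788661, plus strand), was the most abundant sirtuin in CPM. It was at 40.6, 39, 33 and 49.8 CPM in vehicle and at 35.1, 41.9, 17.7 and 38.5 CPM in NAM/PN libraries. The NAM/PN library of pool 3 was the lowest of the 8. The log2 fold change was -0.29 ± 0.3 (95% interval -0.92 to 0.35, adjusted p = 0.898 by edgeR).

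The mitochondrial sirtuins were Sirt3, Sirt4 and Sirt5. Sirt3, the main mitochondrial deacetylase (ENSMUSG00000025486, chromosome 7, 140863666 to 140882309, minus strand), had 171, 53, 145 and 97 counts in vehicle and 106, 15, 29 and 0 counts in NAM/PN libraries. These corresponded to 20.2, 6.58, 17.9 and 10.6 CPM against 13, 2.09, 4.42 and 0 CPM. Each pool was lower with NAM/PN, and the NAM/PN library of pool 1 lay among the vehicle values. Means were 13.8 ± 6.36 and 4.89 ± 5.73 CPM (SD, n = 4), with a log2 fold change of -1.5 ± 0.94 (interval -3.46 to 0.46, unadjusted p = 0.126, adjusted p = 0.743 by edgeR). When pool entered the fit as a block, the log2 fold change was -2.34, with an unadjusted p of 0.0393 and an adjusted p of 0.487 by edgeR. The exact permutation test gave p = 0.0857. Sirt3 exons overlap Ric8a by 418 bases and Psmd13 by 342 bases on the opposite strand; Psmd13 had 21420 counts over the 8 libraries against 616 for Sirt3, and the strand setting of the counting was not given.

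Sirt5, which removes succinyl and malonyl groups (ENSMUSG00000054021, chromosome 13, 43365496 to 43395203, plus strand), was at 8.17, 2.36, 7.41 and 5.88 CPM in vehicle and at 9.23, 9.75, 0.914 and 6.54 CPM in NAM/PN libraries. Pools 2 and 3 moved in opposite directions. The log2 fold change was 0.15 ± 0.89 (interval -1.71 to 2.01, adjusted p = 0.99 by edgeR). Sirt4 (ENSMUSG00000029524, chromosome 5, 115478010 to 115484725, minus strand), which acts on mitochondrial metabolic enzymes, had 69, 54, 0 and 3 counts in vehicle and 19, 7, 0 and 96 counts in NAM/PN libraries. Pool 3 had no count in either condition, while pool 4 held nearly all its counts in NAM/PN. Its interval ran from -3.62 to 3.02, or 0.0815-fold to 8.12-fold, and its spread between libraries was large. Summed over the 3, the level was 15.6 to 36.6 CPM in vehicle and 5.33 to 24.6 CPM in NAM/PN libraries, with overlap.

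Parp1, the main DNA-break sensor of the family (ENSMUSG00000026496, chromosome 1, 180568924 to 180601254, plus strand), was the most abundant of the 10 genes. It was at 106, 116, 127 and 120 CPM in vehicle and at 157, 182, 149 and 121 CPM in NAM/PN libraries. Pools 1, 2 and 3 were higher with NAM/PN and pool 4 was level. Means were 117 ± 8.95 and 152 ± 25 CPM (SD, n = 4), a log2 fold change of 0.38 ± 0.18 (95% interval -0.01 to 0.76, unadjusted p = 0.0534, adjusted p = 0.553 by edgeR). The exact permutation test gave p = 0.0571. Parp2, its close partner at DNA breaks (ENSMUSG00000036023, chromosome 14, 50807841 to 50821301, plus strand), was at 65.1, 44.9, 58 and 39.3 CPM in vehicle and at 29.4, 83.5, 49.8 and 25.6 CPM in NAM/PN libraries. Pool 2 was higher and the other pools lower, and the NAM/PN libraries spanned 3.26-fold against 1.66-fold in vehicle. The log2 fold change was -0.14 ± 0.33 (interval -0.83 to 0.55, adjusted p = 0.97).

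Nnmt (ENSMUSG00000032271, chromosome 9, 48591877 to 48605153, minus strand) was sparse, with at most 4 counts in 5 of 8 libraries. It had 37, 0, 0 and 23 counts in vehicle and 32, 4, 0 and 0 counts in NAM/PN libraries. Pool 1 had similar counts in both conditions, and pool 3 had none in either. Fitted without a filter, the log2 fold change was -0.62 ± 2.39 (adjusted p = 0.962 by edgeR). In bulk libraries fewer cells of a type and less RNA per cell cannot be told apart.

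**Figure D2:**
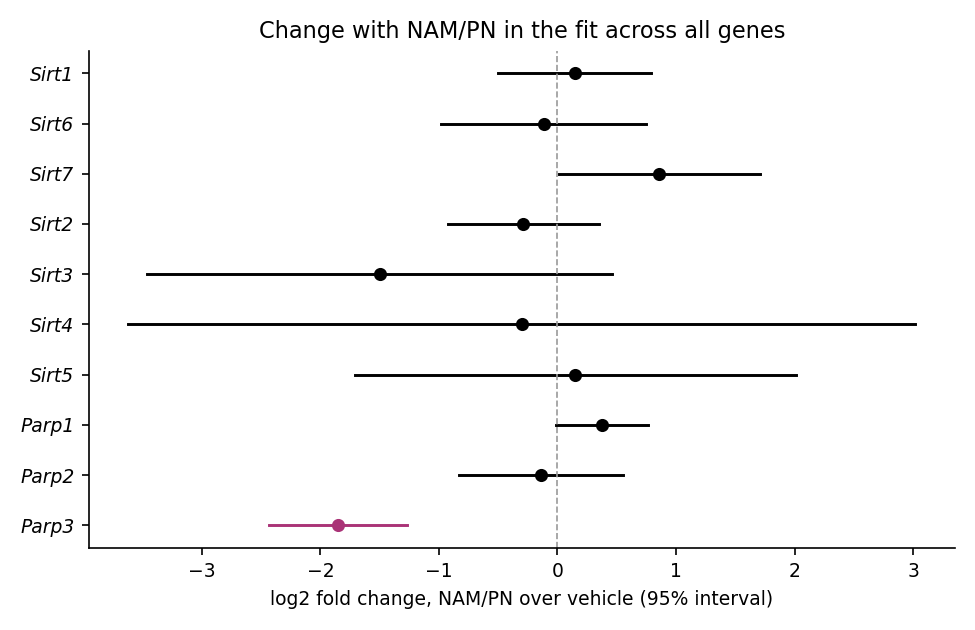
log2 fold change of NAM/PN over vehicle (horizontal axis) with its 95% interval for the 9 tested genes (black) and Parp3 (purple), from the fit across all genes. Intervals of Sirt3, Sirt4 and Sirt5 are the widest; only that of Parp3, from -2.43 to -1.27, lies far from 0.

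**Figure D3:**
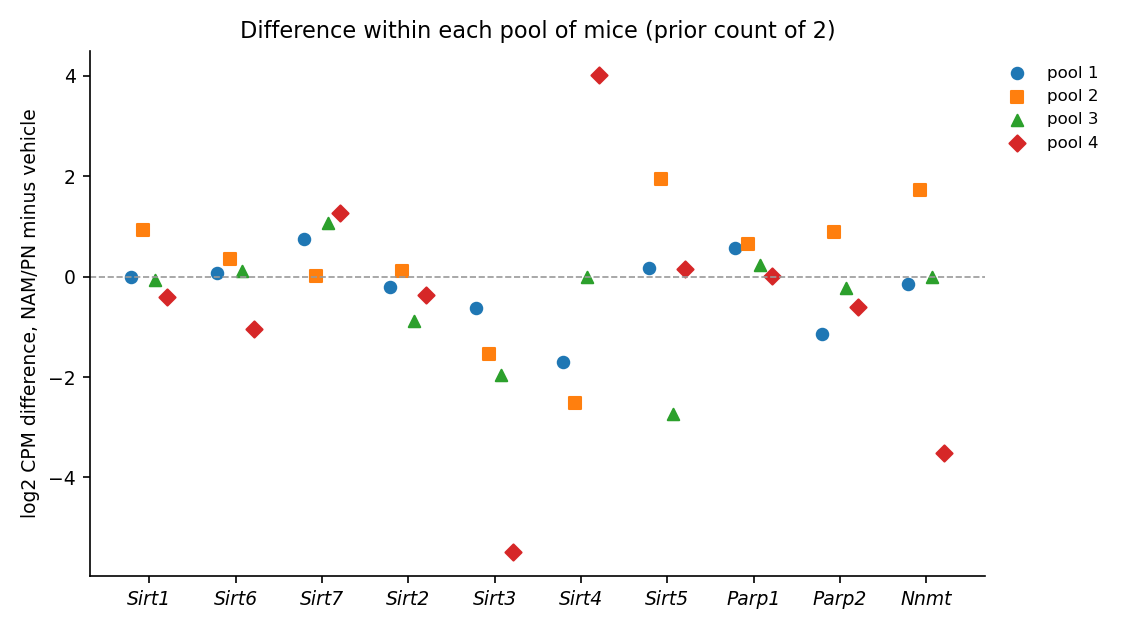
Difference in log2 CPM, NAM/PN minus vehicle (vertical axis, prior count of 2 added), for each pool (symbols) and gene. Parp1 and Sirt7 lie at or above 0 and Sirt3 below 0 in all 4 pools, and Sirt4, Sirt5 and Nnmt hold points on both sides of 0 or at 0.

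The spread between libraries beyond counting error, the biological coefficient of variation, was 0.199 for Parp1, 0.312 for Sirt2, 0.319 for Sirt1, 0.334 for Parp2, 0.412 for Sirt7 and 0.419 for Sirt6. It was 0.823 for Sirt5, 0.86 for Sirt3 and 1.42 for Sirt4. The median over the 9 genes was 0.412 against 0.391 over all tested genes. Genes of a like level had median values of 0.214, 0.321, 0.349, 0.284, 0.441 and 0.465 for the first 6 in the same order, so all of these but Parp2 lay below. For Parp2, 88.4% of genes at a like level varied less, and for Sirt3 89.7%. These values describe what could be seen: a change of up to 1.69-fold in Parp1 and of up to 1.73-fold in Sirt1 lay within the intervals.

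**Figure D4:**
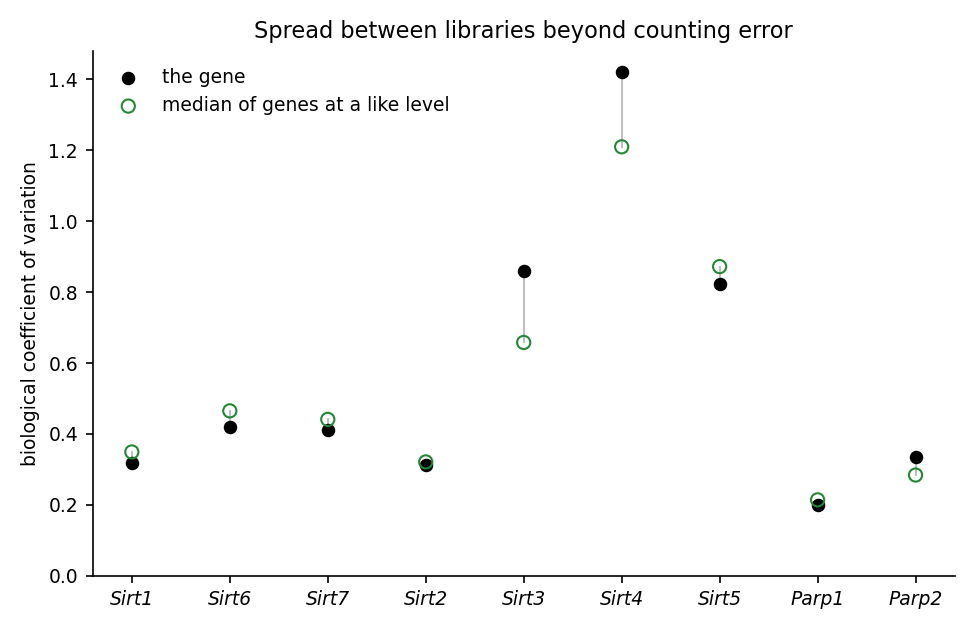
Biological coefficient of variation (vertical axis, starting at 0) of each tested gene (black) and the median of genes within 0.5 log2 CPM of it (green rings). Parp1 at 0.199 varied least and Sirt4 at 1.42 most.

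Reads came from transcript 3′ ends, so counts do not grow with transcript length, and levels were ordered in CPM without division by length. By mean CPM the first 4 genes were the same in both conditions. Parp1 was at 117 CPM in vehicle and 152 in NAM/PN, Parp2 at 51.8 and 47.1, Sirt2 at 40.6 and 33.3, and Sirt1 at 29 and 32.1 CPM. Sirt4, at 3.8 and 3.07 CPM, and Nnmt, at 1.72 and 1.12 CPM, were the lowest in both. Between them the order of the means differed with the condition. In vehicle it ran Sirt6 (17.3 CPM), Sirt3 (13.8), Sirt7 (13.3) and Sirt5 (5.95), and in NAM/PN Sirt7 (24.2 CPM), Sirt6 (16), Sirt5 (6.61) and Sirt3 (4.89). Parp1 lay above Parp2 in 8 of 8 libraries without overlap, and every other pair of neighbours in the order averaged over both conditions overlapped; Sirt7 was above Sirt6 in 3 of 8. Division by the length of the longest transcript moved 3 of the 10 ranks in that averaged order, those of Sirt1, Sirt6 and Sirt7.

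The genes whose log2 CPM ran most closely with Sirt7 over the 8 libraries were Tipin (Pearson r = 0.958), Agrn (0.956), Trim27 (0.955), Glrx5 (0.948) and Tsr1 (0.945). Of 12059 genes, 21, or 0.174%, had r above 0.9. The points share their libraries, the value is a description, and none of the 5 was called.

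Beside the 10 genes, the 14 other ADP-ribosyltransferases held the only called gene of 9 related lists, 1 of 131 genes tested (0.763%), below the 1.28% called over all tested genes. Parp3, a DNA-break-dependent mono-ADP-ribosyltransferase (ENSMUSG00000023249, chromosome 9, 106470322 to 106476949, minus strand), was at 83.5, 73.7, 63.7 and 45.1 CPM in vehicle and at 15, 20.1, 18.7 and 19.8 CPM in NAM/PN libraries. All 4 NAM/PN libraries lay below all 4 vehicle libraries. Means fell from 66.5 ± 16.4 to 18.4 ± 2.33 CPM (SD, n = 4), a log2 fold change of -1.85 ± 0.28 (interval -2.43 to -1.27, adjusted p = 0.00096 by edgeR), and the exact permutation test gave its smallest p, 0.0286. Parp1 and Parp2, the other DNA-break-dependent members, were at 0.38 and -0.14 on the log2 scale. Parp3 shares 20 exonic bases with Rrp9. Of the 12 other ADP-ribosyltransferases tested, 6 were higher and 6 lower, and the median was -0.21 on the log2 scale.

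**Figure D5:**
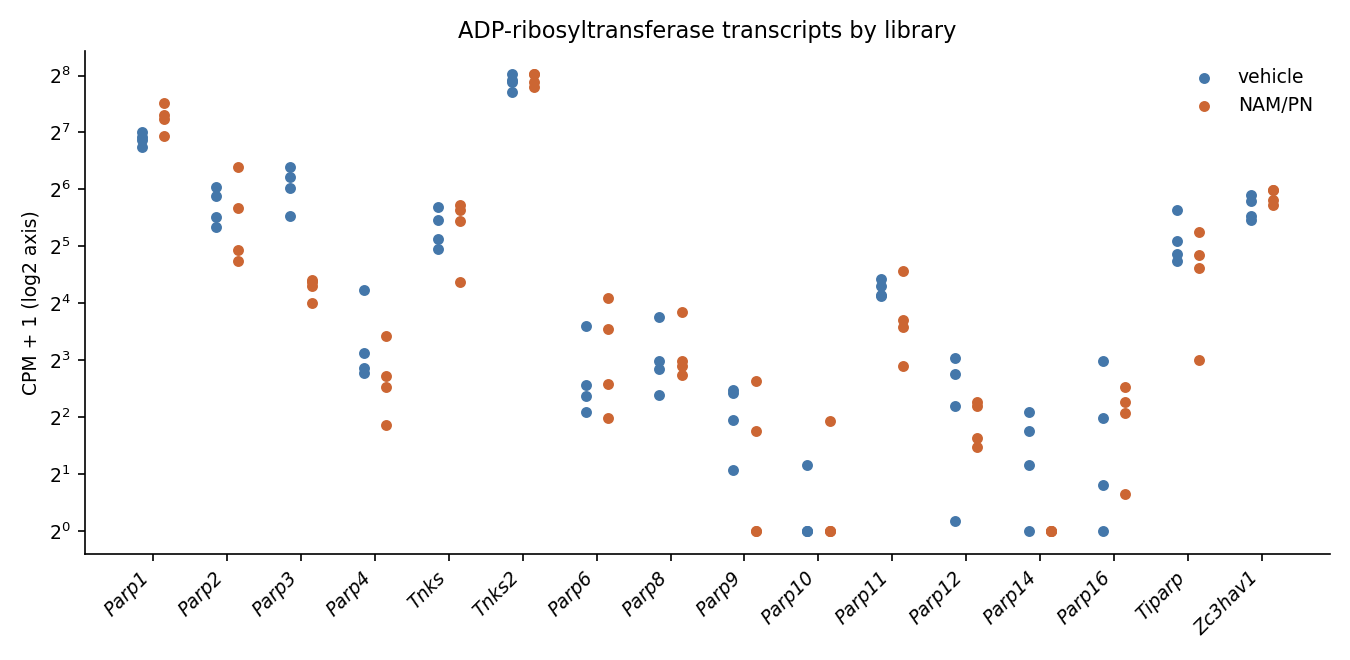
Level of Parp1, Parp2 and the 14 other ADP-ribosyltransferases as CPM + 1 (vertical log2 axis) in 4 vehicle (blue) and 4 NAM/PN (orange) libraries. Parp3 is the gene whose conditions separate most, at 45.1 to 83.5 against 15 to 20.1 CPM.

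The other lists held no called gene by edgeR. DESeq2 and limma also called 1 gene over all 9 lists. Unadjusted p-values under 0.05 were held by 2 partners of PARP1, 1 gene each of the methyl donor cycle, the regulators, the nuclear and cytosolic substrates and the histone deacetylases, and 2 mitochondrial substrates, and by 0 genes of NAD synthesis and the other NAD-using enzymes. With Parp3 these were 9 of 131 genes, or 6.87%, which is no more than the 9.28% over all tested genes. The conditions did not overlap in 6 of the 131, or 4.58%, against 7.21% over all tested genes. Among 16 tested partners of PARP1 and enzymes removing ADP-ribose, 10 were higher and 6 lower, and the median change was 0.16 on the log2 scale. The largest departures by p were Timeless, a replication fork factor (0.83, unadjusted p = 0.0291, adjusted p = 0.44), and Chd1l, a PARP-activated remodeller (1.07, adjusted p = 0.529, higher in 4 of 4 pools). Among the 13 of 21 genes of the methyl donor cycle that were tested, Ahcyl2 was at 0.96 (unadjusted p = 0.0238, adjusted p = 0.394 by edgeR), and Ahcyl1 at -0.26 (adjusted p = 0.782). NAD synthesis genes had 9 tested, 3 higher and 6 lower, with a median of -0.12, Nmrk2 at -1.02 (adjusted p = 0.784) and Nmnat1 at -0.77 (adjusted p = 0.873). Of the other NAD-using enzymes, 3 of 4 were higher, with Nudt13 at -0.84 and Nadk2 at 0.57 (adjusted p = 0.869 and 0.926).

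Regulators of SIRT1 and SIRT6 were 10 higher and 7 lower, with Ctbp1 at 0.4 (unadjusted p = 0.0359, adjusted p = 0.477) and E2f1 at 0.38 (adjusted p = 0.715). Of 28 nuclear and cytosolic sirtuin substrates, 15 were higher and 13 lower; Kat2b, an acetyltransferase, was at 4.96 to 10.4 CPM in vehicle and 0 to 2.51 CPM in NAM/PN libraries, with a log2 fold change of -2.19 (adjusted p = 0.685), and Polr1e, a subunit of RNA polymerase I, was at 0.8 (adjusted p = 0.537). Of 22 tested mitochondrial sirtuin substrates, 16 were lower, with a median of -0.06. Over all 12060 tested genes, 6004 were higher and 6056 lower, with a median of -0.0022. The counts of directions in the lists were not tested. Glud1, glutamate dehydrogenase, was at 213 to 262 CPM in vehicle and 147 to 199 CPM in NAM/PN libraries, without overlap (log2 fold change -0.44, adjusted p = 0.339), and Shmt2 at 0.44 (adjusted p = 0.48). Ppif, cyclophilin D, separated the other way, at 18.9 to 21.8 against 23.5 to 37.9 CPM (log2 fold change 0.65, adjusted p = 0.557); it and Hdac8 are named after their values were seen. The zinc-dependent histone deacetylases, which do not use NAD+, were 8 higher and 2 lower, with a median of 0.24. Hdac7 was at 105 to 107 CPM in vehicle and at 130 to 149 CPM in NAM/PN libraries, without overlap (log2 fold change 0.43, adjusted p = 0.378 by edgeR), and Hdac6 at 0.53 (adjusted p = 0.747). Hdac8 separated in the opposite direction, at 4.68 to 11.5 against 0 to 4.55 CPM (log2 fold change -1.35, adjusted p = 0.842).

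Some genes listed as markers of other cells moved with the conditions. Fibroblast markers summed to 286 to 383 CPM in vehicle and 84.1 to 1160 CPM in NAM/PN libraries, and 3 of the 4 tested (Col3a1, Gsn and Cdh11) were called lower. Col1a1 stood at 486 and 1030 CPM in NAM/PN pools 1 and 2 and at 3.96 and 3.27 CPM in the others, with Pdgfra, Dpt, Lum and Mfap5 at 0. Mural cell markers summed to 291 to 619 CPM and to 109 to 156 CPM, with Acta2 called lower and Myh11 at 0. Acta2 alone was at 244 to 534 CPM in vehicle and 46.9 to 122 CPM in NAM/PN libraries. Rgs5, Pdgfrb, Kcnj8, Abcc9 and Tagln were at no more than 4.59 CPM in any library, so the mural sum in vehicle was mostly Acta2. Endothelial markers reached 29.6 CPM and immune markers 10.3 CPM at most, with Ptprc at 0, and tenocyte and glial markers summed to 245 to 373 and 219 to 318 CPM. Their part in the values of the sirtuins, PARPs and Nnmt was not tested.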

How the data were processed

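The authors deposited 1 table of raw counts per gene for 8 libraries made with a 3′-end kit; per the labels, reads were counted with HTSeq 2.16.2 on GRCm38, and the methods name STAR as the aligner. The annotation release, strand setting and treatment of multi-mapped reads are not given in the sources used here. All 8 columns were matched to samples by their titles, and none was unused. Gene names, positions and overlaps came from GENCODE M21, which named 55141 of 55487 identifiers; 1 listed gene, Slc25a52, had no match. Of the 12 pairs of libraries of the same condition, none agreed within sampling noise.

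Counts were tested with edgeR 4.0.16 (filterByExpr with a minimum count of 10, TMM, glmQLFTest, no block), with Benjamini-Hochberg adjustment over 12060 genes; 95% intervals used the t distribution. limma 3.58.1 and DESeq2 1.42.0 were alternatives, run in R 4.3.3. CPM used TMM library sizes; the two-sided exact permutation test used log2 CPM with a prior count of 2. The fit was tested on simulated data. Libraries were paired by the pool number in their titles, which do not say that both came from the same mice. Correlations of deviations within pools 1 to 4 were -0.011, 0.0143, -0.0332 and 0.0313. These values do not show that libraries of the same pool number resemble each other.

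The genes and lists were chosen with earlier results of these data known. Named were all 10 genes, the called genes of each list or else its 2 of smallest p, and the 5 genes most correlated with the gene of smallest p. Where p-values are given, they measure only the spread between these pools.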

Additional observations from a re-analysis of the deposited data

Results flagged for a closer look

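In the NAM/PN libraries Nnmt lay at 3.94 CPM in pool 1 and at 0 to 0.557 CPM in the other 3, a gap of 0.859 of the range, over Dixon's critical value for 4 samples. The vehicle library of the same pool had 4.38 CPM. Among 20 groups of 4 examined, 1 stood out this way, and chance gives about 5%.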

How the results depend on the processing

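No setting called any of the 10 genes; the smallest adjusted p was 0.216, for Parp1 with limma. The count over all genes of 154 became 289 with DESeq2, 366 without the filter, 232 with limma and 244 at a threshold of 0.10, and 42 to 177 when a library or pool was left out, with 80, 87 and 92 without vehicle pool 2, vehicle pool 4 and NAM/PN pool 1, and 65, 42 and 94 without pools 1, 2 and 4. A replicate block for pool gave 156 called genes, and no call of the 10 genes changed; Sirt5 turned to -0.04, and to -0.01 with limma. Leaving out libraries or pools gave log2 fold changes of -0.15 to 0.3 for Sirt1 (-0.06 without NAM/PN pool 2), -0.26 to 0.17 for Sirt6 (0.05 without NAM/PN pool 4), -2.14 to 0.42 for Sirt4 (0.39, 0.12 and 0.11 without vehicle pool 1, vehicle pool 2 and NAM/PN pool 3), -0.36 to 0.63 for Sirt5 (-0.11, -0.05 and -0.1 without vehicle pool 2, NAM/PN pool 1 and NAM/PN pool 2) and -0.63 to 0.15 for Parp2 (0.03 and 0.06 without NAM/PN pools 1 and 4), turning each sign. Sirt7 stayed between 0.59 and 1.09, Parp1 between 0.27 and 0.48, Sirt3 between -2.69 and -1.08 and Sirt2 between -0.43 and -0.08 under all. Parp3 stayed between -2.04 and -1.64 and was called in each, with adjusted p from 2.92e-07 to 0.0361; most of these settings were chosen for it after seeing the data. Dividing CPM by length moved 3 of 10 ranks. The causes were not tested.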
